A study of Mus musculus with 6 samples.

Results

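The interferon regulatory factor genes Irf1, Irf2, Irf3, Irf4, Irf5, Irf7, Irf8 and Irf9 were followed through the open chromatin of tumor-infiltrating CD8 T cells. Their members are the counted regions that overlap the body of one of these 8 genes by at least 1 base, or that lie outside all genes with one of them as the nearest protein-coding gene within 100 kb. This gave 80 of the 74686 regions in the deposited count table. Irf2 had 24 regions, Irf8 had 22, Irf4 had 15, Irf1 had 11, Irf5 had 4, Irf3 had 2, and Irf7 and Irf9 had 1 each. Distance alone ties an outside region to a gene here, and 1 region, at the start of Irf3, also overlaps Bcl2l12. All 80 regions passed the filter on low counts.

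Accessibility was measured by ATAC-seq, in which a transposase cuts and tags open DNA. OT1 CD8 T cells, which bear a transgenic T cell receptor specific for ovalbumin, were purified on CD8 and CD45.1, a congenic marker, out of B16-OVA-GP61 tumors. This mouse melanoma line expresses both ovalbumin and the viral epitope GP61. Of the 6 libraries, 3 came from tumors with no SMARTA cells and 3 from tumors with them; SMARTA cells are CD4 T cells with a transgenic receptor for GP61, so the comparison asks how CD4 T cells of the tumor's own specificity bear on the CD8 T cells. All 6 libraries share the OT1 receptor, the tumor line and the sort. The sources used here do not give the age, sex or strain of the host mice, the cell doses or the days of transfer. They also leave unsaid whether each replicate is a separate animal. The p-values therefore rest on the spread among libraries, part of which may be technical.

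Interferon regulatory factors are transcription factors with a conserved DNA-binding domain that reads repeats of GAAA, the core of interferon-stimulated response elements. IRF3, IRF5 and IRF7 lie downstream of nucleic acid sensors and Toll-like receptors and switch on interferon genes, IRF9 is the DNA-binding subunit of the complex that answers type I interferon, and IRF1 and IRF2 compete for the same sites, IRF1 mostly as an activator and IRF2 mostly as a repressor. IRF4 and IRF8 bind weakly alone and pair with BATF and JUN or with ETS factors. In CD8 T cells IRF4 is induced by the T cell receptor and is needed for expansion and effector function, and in chronic infection it is tied to exhaustion; in mouse tumors IRF2 in CD8 T cells has been described as a factor that promotes exhaustion.

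The 250 bases before annotated start sites of Irf8, Irf2 and Irf1 are shown, the only ones of the 8 genes with a match to the motifs named below. The counted region at each of these start sites covers all 250 bases. It also does at Irf3, whose window held no match and is not shown. The start-site region of Irf8 lost accessibility, while those of Irf2, Irf1 and Irf3 did not pass the test. Irf8 and Irf1 each have a second annotated start site, whose window held no match and lay outside the counted regions. The sequences shown are from RefSeq for GRCm38.p6, plus strand, at chr8:120736108-120736357 for Irf8, chr8:46739495-46739744 for Irf2 and chr11:53769764-53770013 for Irf1. Capitals mark matches to the motifs named below.
Irf8: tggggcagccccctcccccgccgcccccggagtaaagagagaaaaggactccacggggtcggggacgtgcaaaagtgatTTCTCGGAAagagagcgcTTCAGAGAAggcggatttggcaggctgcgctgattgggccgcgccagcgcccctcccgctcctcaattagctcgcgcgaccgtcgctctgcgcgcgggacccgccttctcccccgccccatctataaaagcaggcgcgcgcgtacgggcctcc
Irf2: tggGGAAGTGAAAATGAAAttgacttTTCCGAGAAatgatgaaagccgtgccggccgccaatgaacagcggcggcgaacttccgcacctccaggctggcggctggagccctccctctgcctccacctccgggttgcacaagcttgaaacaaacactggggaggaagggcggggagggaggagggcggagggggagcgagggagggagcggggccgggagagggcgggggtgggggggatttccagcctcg
Irf1: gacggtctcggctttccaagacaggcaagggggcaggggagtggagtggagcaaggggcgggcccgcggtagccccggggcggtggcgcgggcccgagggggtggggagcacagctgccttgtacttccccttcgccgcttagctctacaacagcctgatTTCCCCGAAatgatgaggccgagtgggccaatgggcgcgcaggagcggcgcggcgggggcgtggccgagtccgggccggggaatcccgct
The capitals in Irf8 are TTCTCGGAA, 171 to 163 bases before the start, and TTCAGAGAA, 153 to 145 bases before it. Both match TTCNNNGAA, the GAS letters bound by STAT dimers. Irf1 holds 1 such match, TTCCCCGAA, 90 to 82 bases before its start, and Irf2 holds TTCCGAGAA at 224 to 216 bases. Irf2 alone among the 8 genes also matches the core of the interferon-stimulated response element (GAAA, any 2 bases, GAAA), with GAAAATGAAA at 241 to 232 bases, and an ETS and IRF composite pattern (GGAA, any 2 bases, GAAA), with GGAAGTGAAA at 247 to 238 bases, which overlaps the former. On both strands, and over 21263 promoters of the same length, 6.58% hold TTCNNNGAA, 2.96% hold the response element core and 2.16% hold the composite pattern. The AP-1 letters TGANTCA, found in 6.13% of these promoters, and the CRE letters TGACGTCA, found in 1.92%, were in the window of none of the 8 genes. A match describes letters and not a bound site.

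Library totals ran from 16595779 to 27182809 counts, and the count of a single member region in a single library ran from 5 to 2543 with a median of 126. On the first principal component of all regions, with 58.3% of the variance, the groups separated; on the second, with 19.2%, replicate 2 with SMARTA cells, the shallowest library, stood at 89.1 and the other libraries of its group at -72.1 and -36.6. All 7 CD8 T cell marker genes had a counted region, with a summed accessibility of 1296 to 1384 CPM (counts scaled to a common library size) without SMARTA cells and 1213 to 1421 CPM with them. Within this list the sum of Cd8a was 214, 195 and 196 CPM without and 188, 120 and 159 CPM with SMARTA cells, so that its groups lay apart. The sums of the other genes of the list overlapped between the groups. These sums are given without a test. Of the melanoma genes, Tyr and Tyrp1 had no region; of the B cell genes Cd79a and Ms4a1, of the macrophage genes Lyz2 and of the dendritic cell genes Xcr1 had none. The summed CPM without and with SMARTA cells ran from 123.2 to 137.8 and from 134.3 to 150.1 for the CD4 T cell list, from 83.35 to 108.4 and from 66.65 to 86.56 for the B cell list, from 173.0 to 209.1 and from 151.0 to 212.9 for the dendritic cell list, and from 267.0 to 284.8 and from 283.0 to 313.8 for the melanoma list. A single gene gave most of each of the last 2 sums. Pmel read 213 to 257 CPM over the 6 libraries, in the melanoma list, and Zbtb46 read 132 to 190 CPM, in the dendritic cell list.

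Of the 8 genes, Irf8 and Irf2 lost accessibility in tumors with SMARTA cells, and they held 23 of the 27 member regions that closed. The summed accessibility of the other 6 genes did not pass the test, with log2 folds from -0.28 at Irf4 to 0.25 at Irf7. With edgeR's quasi-likelihood test, adjusted over all 74686 regions by Benjamini-Hochberg with a threshold of 0.05, 27 of the 80 regions closed (33.8%) and 1 opened. Over all regions tested, 10.4% closed and 4.68% opened. The median log2 fold, with minus without SMARTA cells, was -0.38 over the 80 regions and 0.01 over all regions. In 36 of the 80 regions all 3 libraries with SMARTA cells lay below all 3 without, against 18.5% of all regions, and in 7 they lay above, against 15.7%. Closed regions numbered 12 of 22 at Irf8, 11 of 24 at Irf2, 3 of 15 at Irf4 and 1 of 11 at Irf1, with none among the 8 regions of Irf3, Irf5, Irf7 and Irf9. Without replicate 2 without SMARTA cells the count of closed regions was 17, and without replicate 2 with SMARTA cells it was 27. In bulk libraries, fewer cells with an open site and less opening in each cell cannot be told apart.

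Closed regions lay both inside and outside the genes. Of the 8 regions that hold a start site, 1 closed, that of Irf8, and their median log2 fold was 0.11. Inside the genes but away from the start, 9 of 24 regions closed and 1 opened, with a median of -0.36; outside the genes 17 of 48 closed, with a median of -0.43. The difference between start-site and other regions was not tested.

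**Figure D1:**
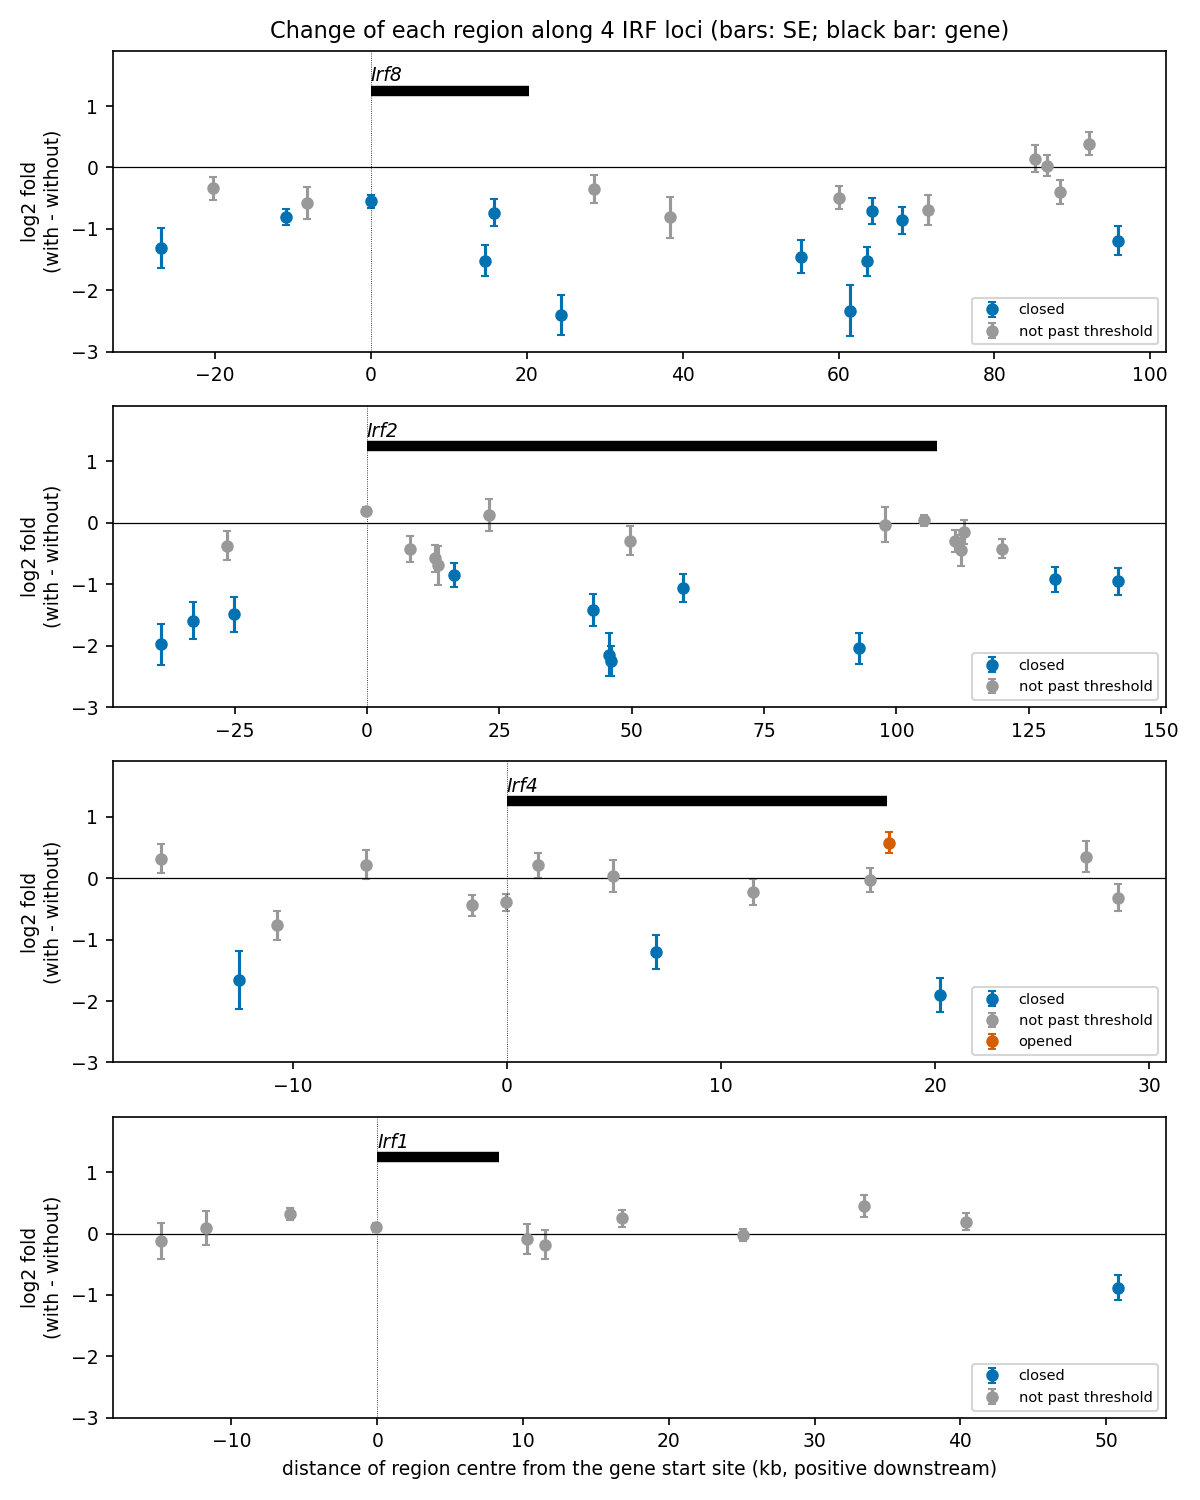
Log2 fold (with minus without SMARTA cells, error bars 1 SE) of every region at Irf8, Irf2, Irf4 and Irf1, against the distance from the start site in kb; the black bar is the gene body and colors mark closed, opened and other regions. Closed regions lie on both sides of and inside Irf2 and Irf8, down to -2.25 and -2.40, while the start-site region of Irf2 lies at 0.19.

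Irf8 encodes the factor that directs dendritic cell and monocyte development, which depends on enhancers downstream of the gene in mouse myeloid cells; activated CD8 T cells also induce it. The gene lies on chromosome 8 from 120736358 to 120756694 on the plus strand. Its start-site region (120736095 to 120736495), the most accessible of its 22 regions, read 59.7, 62.8 and 62.0 CPM in the libraries without SMARTA cells and 48.0, 34.3 and 43.8 CPM in those with them. The groups did not overlap, and the level was 1.46-fold lower with SMARTA cells (log2 fold -0.55 ± 0.11 SE, adjusted p 0.01). The authors' deposited fold enrichment of the peak here ran the other way, at 15.4, 16.5 and 16.7 without and 19.2, 19.7 and 20.6 with SMARTA cells. That value is each peak's own, a ratio over background within 1 library, and was not tested between libraries; the fall at this start site rests on the counts alone. This window is the one that holds both GAS matches printed above.

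The strongest change at Irf8 lay 3.9 kb past the gene's end, 24.42 kb from its start (120760577 to 120760977). It read 41.7, 30.2 and 36.5 CPM without SMARTA cells and 11.1, 3.61 and 5.76 CPM with them. Every library with SMARTA cells was far below every library without, a 5.27-fold lower level (log2 fold -2.40 ± 0.33, adjusted p 0.0012). Without SMARTA cells this site stood among the most open of the locus, near the upstream region at -10.91 kb, which read 35.1, 38.3 and 40.5 CPM and then 23.5, 18.8 and 22.6 CPM (log2 fold -0.81 ± 0.13, adjusted p 0.0024). A second site with a similar fold lay at 61.46 kb, with 10.9, 4.08 and 6.94 CPM without and 2.09, 0.722 and 1.46 CPM with SMARTA cells (log2 fold -2.33 ± 0.41, adjusted p 0.0044). Here the libraries without SMARTA cells were themselves spread widely, but the groups stayed apart.

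All 3 regions inside Irf8 closed, as did 2 of 4 upstream and 7 of 15 downstream. The region at 14.58 kb inside the gene fell from 4.13, 3.77 and 4.22 CPM to 0.917, 1.86 and 1.46 CPM (log2 fold -1.52 ± 0.25, adjusted p 0.0033). Further downstream, regions at 55.16, 63.68 and 95.84 kb closed with log2 folds of -1.45 ± 0.27, -1.53 ± 0.24 and -1.19 ± 0.23. The remaining closed regions were those at -26.98 kb (log2 fold -1.31, adjusted p 0.023), 15.8 kb (-0.74, adjusted p 0.05, just under the threshold), 64.35 kb (-0.71, adjusted p 0.043) and 68.14 kb (-0.86, adjusted p 0.028). These 4 lost the call in 3 to 6 of the 6 fits that leave out a library, and the other 8 kept it in every such fit. The region at -26.98 kb lost it without replicate 3 with SMARTA cells and without replicates 2 and 3 without them. That at 68.14 kb lost it without replicate 1 or 3 of either group, that at 15.8 kb without any library but replicate 2 with SMARTA cells, and that at 64.35 kb without any library. DESeq2 did not call the region at 15.8 kb (adjusted p 0.058), nor did loess scaling (0.065), which also left that at 64.35 kb uncalled (0.051). Between the closed sites, 4 regions from 85.24 to 92.09 kb had log2 folds between -0.40 and 0.39 and did not pass the test.

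Summed over its 22 regions, Irf8 read 264, 237 and 256 CPM without SMARTA cells and 162, 126 and 147 CPM with them. The groups lay apart, and the sum was 1.74-fold lower (log2 fold -0.80 ± 0.10, adjusted p 0.0019 over 15962 genes). Leaving out any library kept the adjusted p between 0.00082 and 0.015. Over all gene sums 5.63% closed and 1.97% opened. The sort was on CD8 and CD45.1, and the macrophage and monocyte marker genes moved in the same direction. Of these 6 genes 5 had a region, Lyz2 had none, and 3 of 11 regions closed. The list's summed CPM was 55.03 to 65.55 without and 33.44 to 43.99 with SMARTA cells. Cd68, a lysosomal protein of macrophages, had 1 region, which read 17.8, 26.9 and 25.5 CPM without and 17.4, 7.28 and 16.7 CPM with SMARTA cells. The groups lay apart but the change did not pass the test (log2 fold -0.76 ± 0.29, adjusted p 0.11), and the single region of Csf1r stayed at or under 3.31 CPM in every library. The part of such cells in the Irf8 result was not tested.

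**Figure D2:**
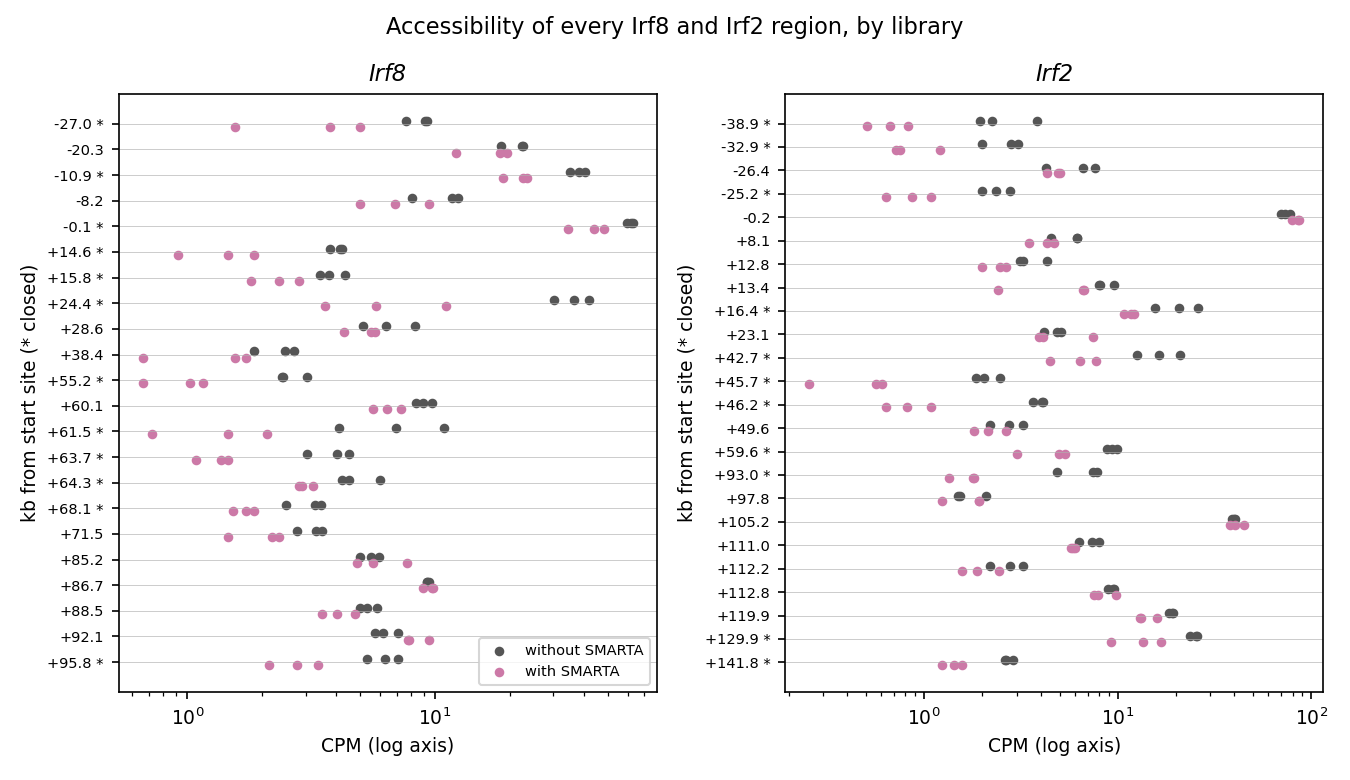
Accessibility in CPM on a log axis of every Irf8 and Irf2 region, in order of position, with 1 point per library colored by group. At the Irf8 region 24.42 kb from the start the libraries without SMARTA cells lie between 30.2 and 41.7 CPM and those with them between 3.61 and 11.1 CPM.

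Irf4, the other member that pairs with BATF and JUN, lies on chromosome 13 from 30749233 to 30766981. Its start-site region (30748994 to 30749394) read 38.3, 43.2 and 46.3 CPM without SMARTA cells and 38.7, 26.5 and 32.5 CPM with them, so that replicate 1 with SMARTA cells lay within the other group (log2 fold -0.39 ± 0.14, adjusted p 0.091). Without that library the adjusted p was 0.031, and with loess scaling of all 6 libraries 0.022. The strongest change lay 2.2 kb past the gene's end (30769228 to 30769628), with 2.29, 3.73 and 3.35 CPM without and 0.917, 0.662 and 0.898 CPM with SMARTA cells. This low-level site closed with separate groups (log2 fold -1.90 ± 0.28, adjusted p 0.0017) and kept the call whichever library was left out.

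A region inside Irf4 at 6.96 kb also closed, from 9.21, 15.7 and 11.6 CPM to 7.49, 3.97 and 4.45 CPM (log2 fold -1.20 ± 0.28, adjusted p 0.019), as did an upstream region at -12.52 kb whose groups overlap, with 1.20, 2.61 and 3.18 CPM against 0.306, 1.26 and 0.711 CPM (log2 fold -1.66 ± 0.47, adjusted p 0.039). Both lost the call, leaving 1 closed region at Irf4, without replicate 3 with SMARTA cells, or without replicate 2 or 3 without them; the region at -12.52 kb also lost it without replicate 1 with SMARTA cells. The 1 member region that opened lies at the end of Irf4, at 17.86 kb (30766892 to 30767292). It read 9.26, 10.8 and 9.46 CPM without and 15.2, 14.8 and 14.2 CPM with SMARTA cells (log2 fold 0.58 ± 0.17, adjusted p 0.04). Its groups lay apart, but the call held in 1 of the 6 fits that leave out a library, that without replicate 2 with SMARTA cells. The sum over the 15 Irf4 regions was 133 ± 11.4 CPM without and 109 ± 18.2 CPM with SMARTA cells (SD, n = 3 each) and did not pass the test (log2 fold -0.28 ± 0.12, adjusted p 0.17, edgeR).

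Irf2 lies on chromosome 8 from 46739745 to 46847458, on the same chromosome as Irf8 but far from it. Its start-site region (46739361 to 46739761), also its most accessible, read 69.4, 77.6 and 72.9 CPM without SMARTA cells and 79.5, 86.3 and 85.0 CPM with them. Every library with SMARTA cells was slightly above the others, and the change did not pass the test (log2 fold 0.19 ± 0.07, adjusted p 0.096). Away from the start the direction was the opposite: 3 of 4 upstream regions, 6 of 14 inside the gene and 2 of 6 downstream of it closed, and none opened.

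The strongest change at Irf2 was inside the gene, 46.17 kb from the start (46785719 to 46786119), at 3.64, 4.04 and 4.13 CPM without and 0.815, 1.08 and 0.636 CPM with SMARTA cells. This is a 4.76-fold lower level with groups well apart (log2 fold -2.25 ± 0.24, adjusted p 0.00045), the lowest adjusted p of the 80 regions. Its neighbor at 45.68 kb closed as well (log2 fold -2.15 ± 0.35, adjusted p 0.0029). That region is near the floor, with 5, 10 and 15 counts in the libraries with SMARTA cells. Also inside the gene, the region at 92.95 kb fell from 4.83, 7.80 and 7.48 CPM to 1.78, 1.8 and 1.35 CPM (log2 fold -2.04 ± 0.25, adjusted p 0.00074), and that at 42.71 kb from 12.5, 21.0 and 16.4 CPM to 7.74, 4.45 and 6.40 CPM (log2 fold -1.42 ± 0.26, adjusted p 0.0051). At 105.18 kb, also inside the gene, the values were 39.0, 40.0 and 40.3 CPM against 37.9, 44.7 and 40.4 CPM, with overlapping groups (log2 fold 0.04 ± 0.09).

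Upstream of Irf2, regions at -38.93, -32.89 and -25.16 kb closed with log2 folds of -1.98, -1.59 and -1.49. These are low-level sites, with 10 to 22 counts in each library with SMARTA cells. Of the closed Irf2 regions, 7 kept the call whichever library was left out. The other 4 lay at 16.36, 59.63, 129.92 and 141.79 kb, with log2 folds of -0.85, -1.06, -0.92 and -0.95, and all 4 lost it without replicate 2 without SMARTA cells, which left 7 closed regions. Those at 16.36, 129.92 and 141.79 kb also lost it without replicate 3 without SMARTA cells, and those at 16.36 and 141.79 kb without replicate 3 with them. The most open of these 4, at 129.92 kb, read 23.7, 25.6 and 25.5 CPM and then 16.7, 9.20 and 13.5 CPM. Summed over 24 regions, Irf2 read 260, 279 and 272 CPM without and 210, 202 and 209 CPM with SMARTA cells, groups that lay well apart (log2 fold -0.39 ± 0.06, adjusted p 0.0082). The adjusted p of the sum stayed between 0.0059 and 0.048 when a library was left out.

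Irf1, the activator that IRF2 opposes and a classic target of interferon gamma, lies on chromosome 11 from 53770014 to 53778374. Its start-site region (53769751 to 53770151), its most accessible, read 84.8, 90.3 and 87.8 CPM without and 87.0, 99.4 and 95.2 CPM with SMARTA cells, with overlapping groups (log2 fold 0.10 ± 0.07, adjusted p 0.37; -0.06 under loess scaling). An upstream region at -5.99 kb read 52.4, 65.2 and 61.9 CPM without and 66.3, 78.3 and 79.5 CPM with SMARTA cells (log2 fold 0.32 ± 0.10, adjusted p 0.057). It lay higher in every library with SMARTA cells but did not pass the test, except without replicate 1 with SMARTA cells (adjusted p 0.029). The only Irf1 region that closed lies 42.2 kb past the gene (53820610 to 53821010), at 7.92, 7.0 and 5.91 CPM against 4.07, 4.21 and 3.07 CPM (log2 fold -0.88 ± 0.21, adjusted p 0.019). It lost the call without replicate 3 with SMARTA cells (adjusted p 0.095), and without replicate 1 (0.063) or replicate 2 (0.064) without them. The sum over the 11 regions was 281 ± 3.94 CPM without and 293 ± 12.9 CPM with SMARTA cells (SD, n = 3 each; edgeR adjusted p 0.61).

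IRF3, IRF5 and IRF7 act downstream of innate sensors. The start-site region of Irf3 (chromosome 7, 44997270 to 44997670) read 65.2, 68.7 and 64.7 CPM without and 65.7, 80.8 and 80.9 CPM with SMARTA cells (log2 fold 0.19 ± 0.09, adjusted p 0.17). Replicate 1 with SMARTA cells lay among the other group, and without it the adjusted p was 0.026. The second Irf3 region, 1.05 kb into the gene, did not pass the test (log2 fold 0.43 ± 0.20, adjusted p 0.19). The only region of Irf7 (chromosome 7, 141266228 to 141266628), an interferon-induced member, holds its start site. It read 41.2, 49.4 and 47.8 CPM without and 52.4, 59.4 and 59.7 CPM with SMARTA cells. All libraries with SMARTA cells were above all without, and the change missed the threshold (log2 fold 0.31 ± 0.09, adjusted p 0.051), with an adjusted p of 0.037 when replicate 1 with SMARTA cells was left out. Irf5, best known from macrophages and B cells, had 4 regions with log2 folds between -0.20 and 0.16. Its start-site region (chromosome 6, 29526500 to 29526900) read 23.7, 21.9 and 25.1 CPM and then 23.2, 21.0 and 21.3 CPM (log2 fold -0.11 ± 0.13, adjusted p 0.63).

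The only region of Irf9 (chromosome 14, 55603930 to 55604330), the DNA-binding subunit of the type I interferon complex, read 66.0, 71.2 and 66.8 CPM without and 68.1, 69.7 and 83.3 CPM with SMARTA cells. The groups overlapped, with replicate 3 with SMARTA cells above the rest (log2 fold 0.12 ± 0.09, adjusted p 0.41; -0.02 under loess scaling).

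**Figure D3:**
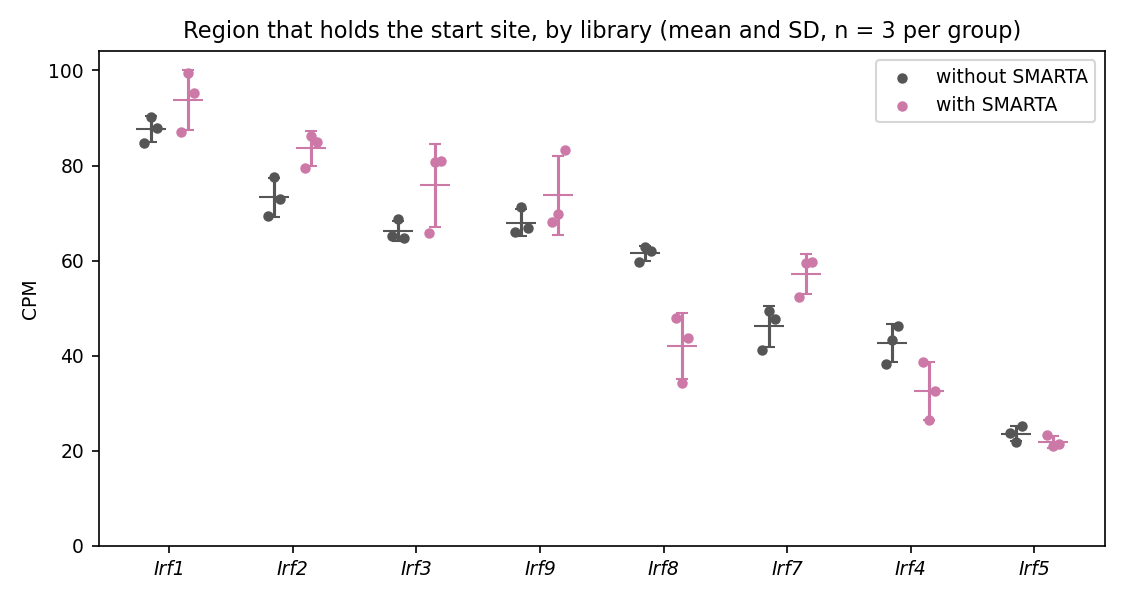
Accessibility in CPM of the region that holds each gene's start site, with 1 point per library and the mean and SD of each group of 3. Irf8 is the gene whose start-site region closed, from 61.5 ± 1.62 to 42.1 ± 7.0 CPM.

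All 8 start-site regions span 400 bases, so their levels can be set side by side. Over all 6 libraries the mean was 90.8 CPM at Irf1, 78.5 at Irf2, 71.0 at Irf3, 70.8 at Irf9, 51.8 at Irf8, 51.7 at Irf7, 37.6 at Irf4 and 22.7 at Irf5. Irf3 and Irf9 overlapped in both groups. Irf2 and Irf3 overlapped in the libraries with SMARTA cells only, and Irf7 and Irf4 in those without only. The order of Irf8 and Irf7 was not the same in both groups: without SMARTA cells Irf8 stood at 61.5 ± 1.62 and Irf7 at 46.1 ± 4.32 CPM, and with them Irf8 stood at 42.1 ± 7.0 and Irf7 at 57.2 ± 4.15 CPM (SD, n = 3 each). Their libraries lay apart in either group, in opposite order, and this turn was not tested. The other neighbors lay apart in both groups.

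**Figure D4:**
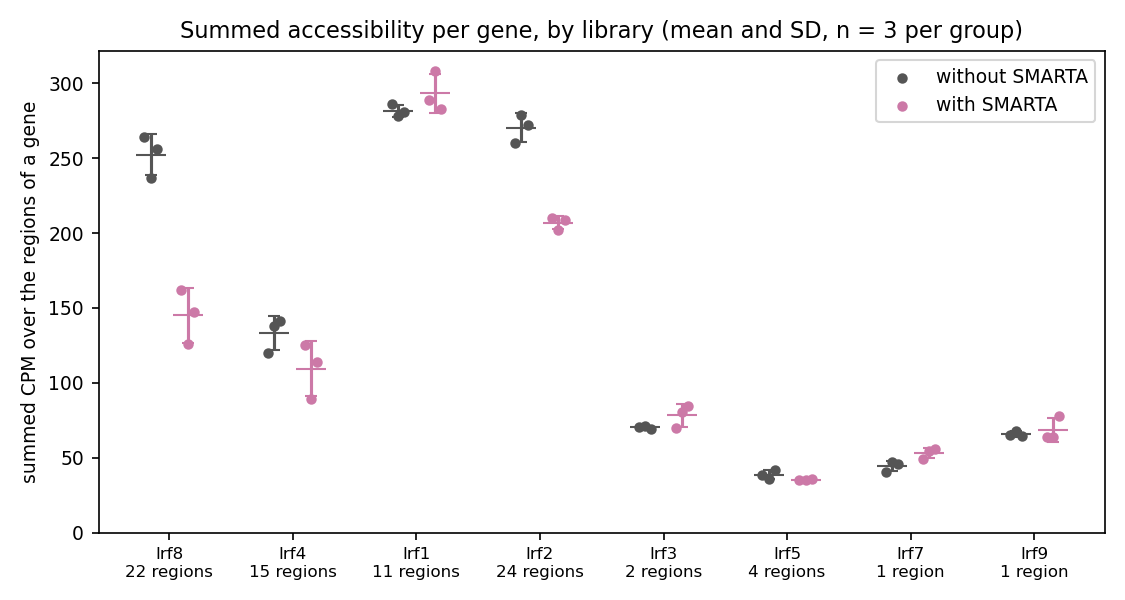
Summed CPM over the regions of each gene, with 1 point per library and the mean and SD of each group of 3. Irf8 and Irf2 are lower in all 3 libraries with SMARTA cells; sums of different genes rest on different numbers of regions.

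The authors' peak lists, called separately in each library, also cover these sites. A peak overlapped 68, 74 and 77 of the 80 regions in the libraries without SMARTA cells and 65, 53 and 62 in those with them. The lists hold 73012, 82089 and 81223 peaks without and 76850, 65020 and 75261 peaks with SMARTA cells, and the fewest regions with a peak were in the shortest list. Of the 27 closed regions, 23 had a peak in all 3 lists without SMARTA cells and 10 in all 3 lists with them; 10 had a peak in 0 lists with SMARTA cells. Of the 52 regions that did not pass the test, 40 had a peak in all 3 lists without SMARTA cells. Counted separately, 40 had a peak in all 3 lists with them, not all the same regions, and 1 had none with SMARTA cells. Peaks and counts come from the same reads, so this is a description. The authors' deposited fold enrichment was higher with SMARTA cells at the Irf8 start site, as given above, and at the Irf8 region 24.42 kb from the start it was 8.40, 8.62 and 8.54 without and 7.09, 3.81 and 5.49 with SMARTA cells.

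Genes that act with the interferon regulatory factors were described from lists of receptors, kinases, partners and sensors. Of 37 such genes, Batf2 and Tlr3 had no region, and the 275 regions of the other 35 held 28 that closed and 26 that opened, with a median log2 fold of 0.08. Over all regions 10.4% closed and 4.68% opened, so the closed count is near the background and is not a result about these genes. The share that opened was above that over all regions, which was not tested, and the opened count moved widely between fits, as given below. Interferon receptors and their JAK kinases had 11 closed and 7 opened of 109 regions. None of the 10 regions of the STAT partners closed or opened. BATF, JUN and ETS partners had 5 closed and 9 opened of 46. The IRF2-binding corepressors had 4 and 7 of 43, and the sensors, adaptors and kinases 8 and 3 of 67. These counts varied with the libraries: leaving out 1 gave 12 to 27 closed and 6 to 36 opened regions. Closed counts of 15, 14 and 12 came without replicate 3 with SMARTA cells and without replicates 2 and 3 without them. Opened counts were 16 and 9 without replicates 1 and 3 with SMARTA cells, and 12, 6 and 7 without replicates 1, 2 and 3 without them.

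The 6 partner genes whose strongest region had the smallest p all had that region among the closed ones. They were picked by that p from the 35 genes and do not stand for the list, in which 28 of 275 regions closed and 26 opened. A region 13.3 kb from Jun, the AP-1 subunit that pairs with BATF, fell from 6.52, 3.81 and 4.46 CPM to 0.764, 1.02 and 0.487 CPM (log2 fold -2.74 ± 0.32, adjusted p 0.00058), although 3 of the 15 Jun regions closed and 3 opened. Ifih1, the RNA sensor MDA5, had a region inside the gene that fell from 3.69, 3.54 and 2.56 CPM to 1.07, 0.662 and 0.711 CPM (log2 fold -2.00 ± 0.28, adjusted p 0.0013). Every library with SMARTA cells was below every library without at both sites. Irf2bp2, a corepressor that binds IRF2, had 4 closed and 5 opened of 25 regions. The strongest, 65.9 kb from the gene, had a log2 fold of -1.85 ± 0.26 (adjusted p 0.0015). Tyk2, the kinase of the type I interferon receptor, had 1 closed of 8, inside the gene, with a log2 fold of -2.12 ± 0.30 (adjusted p 0.0015). Tbk1, the kinase that activates IRF3, had 3 closed and 1 opened of 10. The strongest, 28.7 kb from the gene, had a log2 fold of -2.40 ± 0.38 (adjusted p 0.0029). Jak1 had 4 closed and 4 opened of 35, the strongest, inside the gene, at -1.28 ± 0.23 (adjusted p 0.0046). These 6 regions kept the call whichever library was left out.

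By the closeness of the summed log2 CPM, centered over the 6 libraries, the genes most like Irf8 among 4956 genes with at least 5 regions were Cx3cr1, Prelid2 and St14, with root mean square differences of 0.057, 0.057 and 0.060. Those most like Irf2 were Rel, Tkt and Lgalsl, at 0.029, 0.032 and 0.037. Cx3cr1, a chemokine receptor of effector T cells and monocytes, had a log2 fold of -0.74 in its sum beside -0.80 for Irf8. Rel, an NF-kappa B subunit, had -0.35 beside -0.39 for Irf2. The genes were picked for closeness over these same libraries, so similar folds follow from the choice and are not a separate result.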

How the data were processed

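ATAC-seq of 6 libraries, 3 per group by the sample titles, was analysed. The authors deposited whole-number counts for 74686 regions, with no normalization, and a peak list per library. By the usual column order of such peak lists, each peak has a score, a fold enrichment, a −log10 p and a −log10 q. Build GRCm38 and the tools MACS2 2.1.1, BWA 0.7.17, DiffBind 3.4.11, Picard 2.18.9 and SAMtools 1.8 appear, without roles, per the submitters' processing notes. The sources used here do not state duplicate removal or any shift of reads for the transposase. Gene bodies came from the RefSeq table of GRCm38.p6, which gives no exons, and region coordinates are printed as deposited.

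Counts were scaled by TMM and tested with edgeR 4.0.16 in R 4.3.3 (quasi-likelihood, filterByExpr, group only, Benjamini-Hochberg over all regions, threshold 0.05). A gene's sum adds the counts of its regions and was tested over 15962 genes. SE is the log2 fold divided by the root of F. CPM are counts scaled to a common library size with the TMM factors. The fit was tested on simulated counts. Alternatives were DESeq2 1.42.0, other scalings, filters and thresholds, a replicate block and leaving out each library. All 8 genes are named, with their strongest, most accessible, start-site and called regions, the 6 partner genes with the smallest p and the 3 genes most like Irf8 and Irf2. Some genes of these lists enter the list totals but are not reported here by name. The members and lists were chosen with earlier results of these data known. No genome was used, so sequences of regions away from start sites are not shown.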

Additional observations from a re-analysis of the deposited data

How the results depend on the processing

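Of the 28 called regions, 27 kept their call with DESeq2 and with RLE scaling, 26 with loess scaling, 28 with total-count scaling or no filter, 25 with a replicate block, and 24 with a stricter filter, which removed 3 from the test. Scaling moved the median log2 fold of all regions by at most 0.04. The 27 closed regions became 15 at an adjusted p of 0.01, 10 inside genes only, 14 within 20 kb and 17 to 27 when a library was left out; the 1 opened region became 2 with the replicate block, 0 at 0.01, and 0 to 3. The labels do not say whether replicate numbers pair the libraries. Deviations of same-numbered libraries from their group means had correlations of -0.02, -0.08 and 0.08, which with 3 libraries per group cannot exclude a pairing. The block is therefore only an alternative. It lost the opened Irf4 region and called regions of Irf1 and Irf7 (0.31, adjusted p 0.032). The 28 closed partner-gene regions became 11 at 0.01, 12 inside genes, 15 within 20 kb and 12 to 27 with a library left out; the 26 opened ones became 3, 10 inside genes, and 6 to 36. Loess scaling reversed the start-site regions of Irf1 (-0.06) and Irf9 (-0.02), neither called. The Irf3 sum ran from 0.10 to 0.23 and passed the test at 0.23 (adjusted p 0.049) without replicate 1 with SMARTA cells; the Irf9 sum ran from -0.05 to 0.11. With peaks of −log10 q of at least 5, replicates 1 and 3 without SMARTA cells had peaks at 63 and 72 regions. With a peak required to cover 50% of a region, the counts were 56, 67 and 66 without and 57, 43 and 52 with SMARTA cells. The cause of these changes was not tested, beyond fewer regions, fewer libraries or a stricter threshold where the setting itself is that. Depth limits the weakest sites, where a region can rest on 5 counts in a library.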
